A study of Sus scrofa domesticus with 28 samples.

Results

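Hyperpigmented and hypopigmented scar of the mid phase were compared across genes in 8 skin biopsies, 4 of each colour, out of 28 biopsies in the series. Every array labelled as mid scar was used, and its group was taken from its title. The animals were 2 juvenile castrated male red Duroc pigs, numbered 49 and 50, a breed used as a model of raised scarring after deep wounds. Each pig gave a hyper and a hypo biopsy of mid scar from its left side, which had sham treatment, and a hyper and a hypo biopsy from its right side, which had pressure treatment. This makes 4 pairs (49L, 49R, 50L and 50R), with 2 sham and 2 pressure biopsies of each colour. The other 20 arrays, 4 of control skin and 8 each of early and late scar, served for comparison. Early scar was all sham treated, and late scar had 4 sham and 4 pressure biopsies.

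Each Agilent array measured 1 biopsy, labelled with Cy5, against a universal pig reference RNA, labelled with Cy3. A level below is the log2 ratio of biopsy to reference, and a difference is hyper minus hypo on that scale, ± SE from one limma model. The question was which genes differ between dark and pale scar of the same animal and side. P-values are Benjamini-Hochberg adjusted over 18768 features, of which 2646 carry a gene symbol. They measure the spread between biopsies of 2 animals, not between pigs. Sham always lay on the left and pressure on the right, so treatment and side cannot be told apart. All hyper biopsies carry another code in their titles than all hypo biopsies, and its meaning is not stated, so pigmentation and that code cannot be told apart. A further number in the titles, of unstated unit, differs between the hyper and the hypo biopsy in 3 of the 4 pairs, and whether both biopsies of a pair were taken from 1 scar is not stated.

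Skin colour comes from melanin, which melanocytes make inside organelles called melanosomes and pass to keratinocytes. Tyrosinase (TYR) starts the synthesis from tyrosine, and the related proteins TYRP1 and DCT act on later intermediates. The transcription factor MITF, driven by signals through receptors such as MC1R and KIT, controls these genes, and Rab proteins and their partners build the melanosomes and carry them to the cell edge. A dark and a pale area of a scar can differ in the number of melanocytes or in the activity of each. In a biopsy of whole tissue, fewer melanocytes and less pigment RNA per melanocyte cannot be told apart.

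Between 17513 and 21712 of 43603 probes per mid array (40.2 to 49.8%) had a Cy5 signal well above background, with overlapping ranges in hyper (41.1 to 49.8%) and hypo biopsies (40.2 to 48.9%). Of 35 genes chosen as markers of the cell types that skin may hold, 28 were measured, among them all 5 of connective tissue matrix, 3 of 5 of skin epithelium and 3 of 5 of melanocytes. The melanocyte genes MLANA and PMEL, the basal keratins KRT5 and KRT14, the muscle protein MB, the macrophage gene CD68 and the globin HBB were not measured here. TYR was well above background on 2 of the 8 mid arrays, TYRP1 on 3 and DCT on 8.

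One pair stood apart before any gene was tested. Across 18198 features measured in all 4 pairs, the differences of pair 50R correlated negatively with those of the other pairs (Pearson's r of -0.72 with 49L, -0.48 with 50L and -0.29 with 49R). The other 3 pairs correlated with each other between 0.12 and 0.44. These correlations are across features, which are not independent replicates. The levels of the hyper biopsy of 50R were closest to the hypo biopsy of 49L (r = 0.93), and its r with the other hyper biopsies was 0.70 to 0.73. The hypo biopsy of 50R had r of 0.88 and 0.89 with the hyper biopsies of 49L and 50L, and of 0.90 and 0.89 with the hypo biopsies of 49R and 50L. In 6179 features (34%), 50R had the opposite sign to the other 3 pairs, against 2273 (12.5%) for 49L, 986 (5.42%) for 49R and 830 (4.56%) for 50L. Of the 6179, 3773 were higher in hyper scar in the other 3 pairs (20.7%) and 2406 lower (13.2%). In 1244 features (6.84%) all 4 pairs had 1 direction, 527 higher in hyper (2.9%) and 717 lower (3.94%). The labels of 50R were kept as given. Fits without this pair are given for the counts, for TYR, TYRP1 and DCT, and where a named feature of lowest p then passed. For most other genes and for the gene lists only the fit over all 4 pairs is given.

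Over all 4 pairs, 0 of 18768 features (0%) passed the adjusted threshold of 0.05 in limma. At an unadjusted p under 0.05 there were 1763 features (9.39%), 993 higher in hyper scar (5.29%) and 770 lower (4.1%), and the median difference of all features was 0.02. Without the pair 50R 476 features passed, 196 higher and 280 lower. Leaving out the hyper biopsy of 50R alone gave 101. Leaving out one of the other hyper biopsies gave 8 (49L), 3 (49R) or 3 (50L), and leaving out the hypo biopsy of 50R gave 2. With the slide as a fixed block 36 features passed, and with the slide as a random block 0. No feature is therefore called as changed over the 4 pairs in what follows, and values are given as measured.

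TYR and TYRP1, of the melanin-synthesis genes, separated the labelled colours. TYR stood at 0.36 (49L), 0.11 (49R), 0.79 (50L) and 0.14 (50R) in the hyper biopsies. In the hypo biopsies it lay at -0.27, -0.29, -0.29 and -0.28 in the same order. All 4 hyper biopsies were above all 4 hypo biopsies, which lay within 0.02 of each other, and no scar biopsy came near control skin at 2.54 to 3.65. Of all features measured in the 4 pairs, 109 (0.599%) had all 4 hyper above all 4 hypo values. The fitted difference of TYR was 0.63 ± 0.24 (unadjusted p = 0.0147, adjusted p = 0.518 in limma). The probe was well above background on 2 of 4 hyper and 0 of 4 hypo arrays, and on all 4 of control skin. In the Cy5 channel control skin was at least 18.7-fold above hypo scar. The mean of the hyper arrays was 1.48-fold above hypo scar. That is not a lower bound, since hyper arrays not well above background entered at their own signal. For these folds each hypo array was taken at its own signal or, where that was lower, at its lowest signal well above background. Their scale is that of one channel, not of the ratio, and signals were also scaled between arrays (Aquantile in limma).

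TYRP1 had a wider spread among the dark biopsies. Its levels were 1.59, 0.80, 1.41 and 0.59 in hyper scar of 49L, 49R, 50L and 50R. In hypo scar they were 0.16, 0.05, -0.08 and 0.44. The groups did not overlap, but the lowest hyper and the highest hypo value both came from 50R and lay 0.15 apart. Both sham hyper biopsies were above both pressure hyper biopsies, and control skin lay at 1.90 to 2.96. The difference was 0.96 ± 0.32 (unadjusted p = 0.0070, adjusted p = 0.518). TYRP1 was well above background on 3 of 4 hyper and 0 of 4 hypo arrays. It was 1.73-fold higher in hyper scar in the Cy5 channel, which as for TYR is not a lower bound. Control skin was at least 3.88-fold above hypo scar.

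The differences within the pairs were 0.63, 0.40, 1.07 and 0.42 for TYR and 1.43, 0.75, 1.50 and 0.15 for TYRP1. Both genes were higher in hyper scar in 4 of 4 pairs, and the exact two-sided sign-flip permutation test gave p = 0.125 for each, the smallest that 4 pairs allow. In 2 of the 4 pairs for TYR and 1 for TYRP1 neither array was well above background, so those signs compare signals not above background. Only 1 slide held both colours of mid scar, with the hyper biopsy of 49R and the hypo biopsies of 49L and 50R. There the differences were 0.38 for TYR and 0.50 for TYRP1, but they cross side and treatment or animal, since no pair lay on 1 slide. The other mid biopsies shared no slide with the other colour, so slide and colour are largely confounded. Without the pair 50R the fitted differences were 0.63 (adjusted p = 0.230) and 1.11 (adjusted p = 0.126). Their size depended on the background correction. With the scanner program's own processed signals the differences were 2.55 and 3.94, and without the limit on local backgrounds 0.27 and 0.14. With median centring TYRP1 was higher in 3 of 4 pairs (exact p = 0.25).

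The feature of lowest p on the array carries no gene symbol. AB280952, a pig transcript accession measured by 3 probes that pointed the same way, had levels of 2.27, 1.44, 2.44 and 1.31 in the 4 hyper biopsies. In the hypo biopsies it stood at -0.15, -0.45, -0.34 and -0.08. The groups were far apart in every pair, with differences of 2.42, 1.89, 2.78 and 1.39, and control skin was higher still at 4.41 to 5.54. The fitted difference was 2.12 ± 0.41 (unadjusted p = 4.6e-05, adjusted p = 0.518). It passed without the pair 50R (2.25, adjusted p = 0.0338), without the hyper biopsy of 50R (2.24, adjusted p = 0.0417) and with the processed signals (4.87, adjusted p = 0.0187). AB280952 was well above background on 4 of 4 hyper and 0 of 4 hypo arrays. It was at least 3.34-fold higher in hyper scar in the Cy5 channel, and control skin was at least 35.9-fold above hypo scar. Like TYR and TYRP1 it was highest in control skin, intermediate in hyper and lowest in hypo scar on these arrays. That order is not particular to pigment genes, since CA6 and PLET1, described below, had it too.

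**Figure D1:**
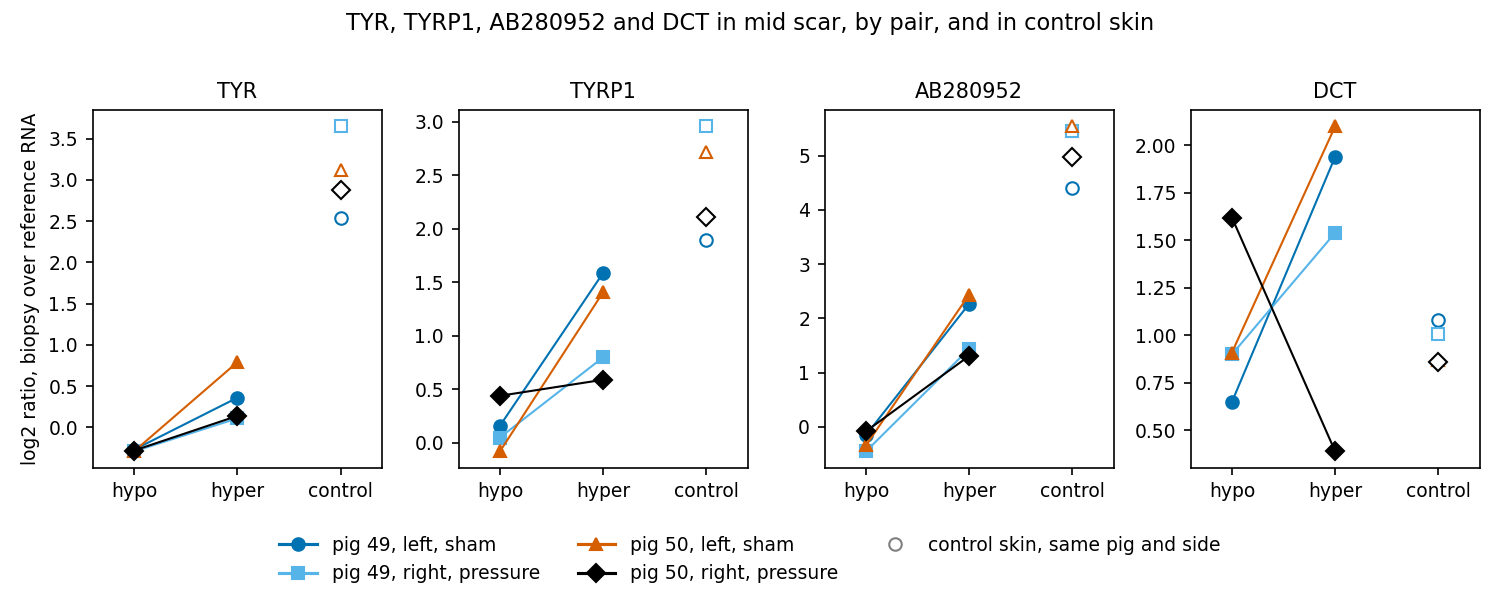
Levels of TYR, TYRP1, AB280952 and DCT as log2 ratio of biopsy to reference (y axis) in hypo and hyper mid scar, joined by a line for each of the 4 pairs, and in control skin of the same pig and side (open symbols). The lines of TYR, TYRP1 and AB280952 slope upward from hypo to hyper in every pair, while the line of pair 50R slopes downward for DCT, from 1.62 to 0.39.

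DCT, which converts dopachrome on the way to brown-black melanin, did not follow this order. Its levels were 1.94, 1.54, 2.10 and 0.39 in hyper scar and 0.65, 0.90, 0.91 and 1.62 in hypo scar. It was higher in hyper scar in 3 pairs by 0.65 to 1.29 and lower by 1.23 in 50R, and 3 of 4 hyper values exceeded all control values (0.86 to 1.08). The difference was 0.47 ± 0.25 (adjusted p = 0.557), and 0.94 (adjusted p = 0.0504) without the pair 50R. OCA2, a melanosome membrane protein needed for full tyrosinase activity, was not well above background on any mid array, so no fold is given. Of the 15 genes listed for melanin synthesis and melanosome structure 4 were measured. All 4 had a positive difference, 2 of them at an unadjusted p under 0.05 (5.29% of all features were higher at that threshold), with a list median of 0.55 against 0.02 for all features.

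Genes for building and moving melanosomes mostly had differences of the opposite sign to TYR. Of 22 listed genes 14 were measured, with 3 positive and 11 negative differences and a median of -0.20. The list was lower in hyper scar in 12 of 14 genes in 49L and in 49R and 9 of 14 in 50L, and higher in 12 of 14 in 50R. The adaptor MLPH, which ties melanosomes to the motor that carries them, stood at -0.15, -0.47, 0.33 and -0.63 in hyper and -0.63, -0.59, -0.75 and -0.49 in hypo scar (0.38 ± 0.17, unadjusted p = 0.0344). It was higher in hyper scar in 3 of 4 pairs, and the groups overlapped. RAB32, a small GTPase that delivers melanin enzymes to the melanosome, ran the other way. Its levels were -0.56, -0.25, -0.27 and -0.04 in hyper and 0.23, 0.32, 0.49 and -0.43 in hypo scar (-0.43 ± 0.17, unadjusted p = 0.0191). Both genes kept 1 direction in 49L, 49R and 50L and turned in 50R.

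The receptors and regulators of melanocytes showed no shared direction. Of 18 listed genes 9 were measured, 6 with a positive and 3 with a negative difference, and their median was 0.04. The coactivator CITED1 stood at 1.03, 0.23, 0.54 and -0.42 in hyper and -0.20, -0.28, -0.15 and 0.12 in hypo scar (0.48 ± 0.17, unadjusted p = 0.0121). LEF1, a transcription factor of the WNT pathway, was lower in hyper scar in all 4 pairs. Its levels were 0.25, 0.04, 0.44 and 0.45 against 0.37, 1.52, 1.67 and 0.63 (-0.75 ± 0.30, unadjusted p = 0.0205). MC1R, the melanocortin receptor, was at 0.52, 0.40, 0.66 and 0.21 in hyper and -0.02, 0.18, 0.11 and 0.43 in hypo scar (0.27 ± 0.20, adjusted p = 0.675). Pair 50R again had the opposite sign to the rest for CITED1 and MC1R. MITF ranged from -0.55 to 0.60 in hyper and from -0.46 to 1.44 in hypo scar (-0.19 ± 0.29, adjusted p = 0.866). The receptor KIT (0.23 ± 0.24) and the endothelin receptor EDNRB (0.00 ± 0.25) also overlapped between the groups, and SOX10 was not well above background on any mid array. Of 34 genes for signals that act on melanocytes 12 were measured, with a median of -0.12. Of these, 0 had an unadjusted p under 0.05, where 9.39% of all features passed in either direction. The 12 include the melanocortin precursor POMC (0.15 ± 0.23), the growth factor TGFB1 (-0.51 ± 0.26) and the prostaglandin synthase PTGS2 (-0.43 ± 0.45).

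Among the other genes with a symbol, those named next had the lowest p in each direction with 1 sign in all 4 pairs, so that sign was part of the choice. The secreted carbonic anhydrase CA6, a gland product, stood at 0.90, 0.81, 1.84 and 0.74 in hyper scar and at 0.00, 0.51, 0.07 and 0.45 in hypo scar (0.82 ± 0.25). All hyper values were above all hypo values and below control skin at 3.62 to 4.31. PLET1, a surface protein of epithelial progenitors, stood at -0.01, -0.59, 2.41 and -0.33 in hyper and -0.80, -1.02, -1.22 and -0.84 in hypo scar (1.34 ± 0.48). The hyper biopsy of 50L lay far above the other hyper biopsies, and control skin stood at 3.81 to 4.11. PLET1 was well above background on 3 of 4 hyper and 0 of 4 hypo arrays. It was 2.47-fold higher in hyper scar in the Cy5 channel, which as for TYR is not a lower bound. The growth factor EGF (1.11 ± 0.40), the chromatin protein JADE1 (0.52 ± 0.17), the peptidase APEH (0.51 ± 0.19) and the DNA sensor TLR9 (0.37 ± 0.13) were also higher in hyper scar in 4 of 4 pairs. TLR9 was well above background on 3 and EGF on 4 of the 8 mid arrays. All these genes had an adjusted p of 0.518.

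Lower in hyper scar was THY1, a surface protein of fibroblasts. Its levels were 0.63, 0.59, 0.95 and 1.32 in hyper and 1.49, 1.68, 1.67 and 1.39 in hypo scar (-0.69 ± 0.19, unadjusted p = 0.0015). The groups did not overlap, though the hyper biopsy of 50R lay 0.07 below its partner, and the hyper values of 49L and 49R were within the range of control skin (0.41 to 0.85). The zinc transporter SLC30A4 stood at -0.23, -0.24, 0.03 and 0.05 in hyper and 0.96, 0.17, 0.35 and 0.58 in hypo scar (-0.61 ± 0.19), and was well above background on 3 of the 8 arrays. TMX4, a redox protein of the endoplasmic reticulum, was at 0.20, 0.28, 0.31 and 0.49 against 0.99, 0.70, 1.0 and 0.67 (-0.52 ± 0.18). Neither gene overlapped between the groups, nor did ANKRD17 (-0.43 ± 0.14). Over all features, 109 (0.599%) had all 4 hyper above all 4 hypo values and 149 (0.819%) had all 4 below. The lipid kinase PIP4K2A (-0.92 ± 0.26), the small GTPase RAB28 (-0.68 ± 0.21), C1QTNF6 (-0.98 ± 0.34) and ANKRD28 (-0.44 ± 0.15) were lower in 4 of 4 pairs with overlapping groups. Each of these genes had an adjusted p of 0.518. Without the pair 50R, THY1 (-0.94, adjusted p = 0.0326), PIP4K2A (-1.34, 0.0283), RAB28 (-1.04, 0.0243) and ANKRD28 (-0.61, 0.0402) passed.

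After AB280952, the largest difference of the features named without a symbol was that of ENSSSCT00000006679, measured by 5 probes of 1 direction. Its levels were -1.75, -1.31, -1.18 and 1.36 in hyper and 1.20, 1.21, 1.56 and 0.03 in hypo scar (-1.72 ± 0.43), so 3 pairs had low hyper values and 50R the reverse. Without the pair 50R its difference was -2.69 (adjusted p = 0.00566). TC595575, well above background on 1 of 4 hyper and 4 of 4 hypo arrays, had -1.21 ± 0.30 over 4 pairs and -1.87 (adjusted p = 0.00566) without 50R. AK237962 (-0.74 ± 0.18) and TC591169 (-0.62 ± 0.16) were lower, and ENSSSCT00000014563 (0.67 ± 0.15), TC566497 (0.67 ± 0.16) and AY214329 (0.57 ± 0.13) were higher, each with an adjusted p of 0.518. Without the pair 50R, AK237962 (-1.03, adjusted p = 0.0159), TC591169 (-0.75, 0.0480), ENSSSCT00000014563 (0.75, 0.0338) and TC566497 (0.88, 0.0291) passed and AY214329 (0.51, 0.0976) did not.

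**Figure D2:**
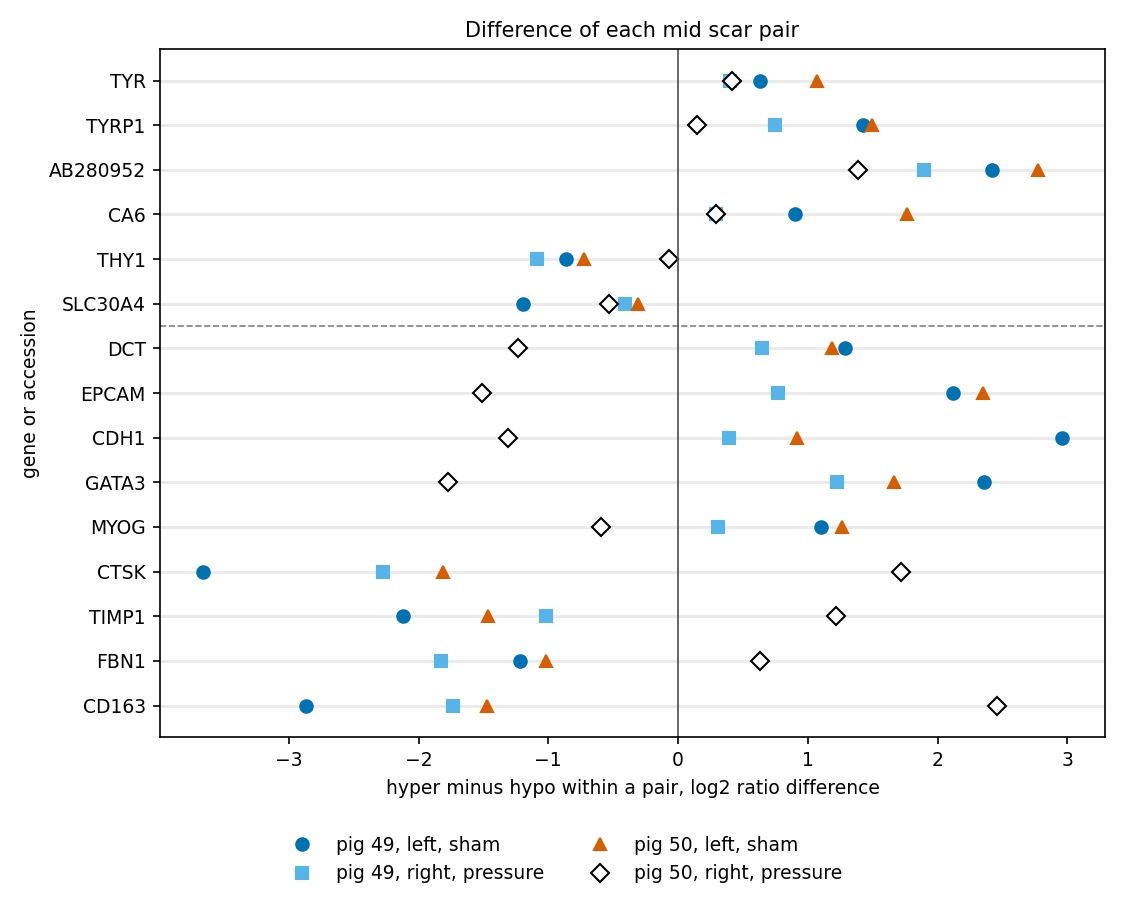
Hyper minus hypo difference of the log2 ratio within each of the 4 mid scar pairs (x axis) for 15 features. Above the dashed line all 4 pairs share 1 direction, while below it the pair 50R (open diamonds) lies on the other side of 0 from most of the other pairs, as for CTSK at 1.72 against -1.81 to -3.66.

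Matrix genes had mostly negative differences. Of 12 measured proteases and inhibitors of the matrix 11 had a negative difference, 5 of them at an unadjusted p under 0.05, where 4.1% of all features were lower, and the list median was -0.45. CTSK, the collagen-degrading cathepsin, stood at 1.1, 1.56, 1.72 and 4.20 in hyper and 4.76, 3.83, 3.53 and 2.48 in hypo scar (-1.51 ± 0.50, unadjusted p = 0.0071). The hyper biopsy of 50R was within the hypo range, and the other 3 were below it. The inhibitor TIMP1 had the same layout, with 0.51, 0.95, 0.44 and 2.51 against 2.63, 1.97, 1.90 and 1.29 (-0.85 ± 0.33). TIMP2 (-0.86 ± 0.30), the membrane protease MMP14 (-1.16 ± 0.48) and MMP11 (-1.02 ± 0.42) made up the rest of the 5. In the pairs 49L, 49R and 50L the list medians were -1.02, -0.88 and -1.04, and in 50R the median was 0.68.

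Of 14 measured collagens and matrix genes 13 had a negative difference, with a median of -0.47. At an unadjusted p under 0.05, where 4.1% of all features were lower, there was 1. That gene was FBN1, the main protein of elastic microfibrils, at 0.67, 0.76, 1.32 and 2.09 in hyper and 1.88, 2.59, 2.34 and 1.46 in hypo scar (-0.86 ± 0.29). Once more the values of 50R were exchanged in order. The collagen chain COL1A2 was at 3.70, 4.37, 3.55 and 5.15 in hyper and 2.82, 5.09, 5.10 and 5.13 in hypo scar (-0.35 ± 0.76), 2 hyper values and 1 hypo value within the control range of 1.35 to 3.80 and the rest above it. The medians by pair ran from -1.33 (49R) and -1.04 (50L) to 0.39 (49L) and 0.14 (50R), so for collagens the split was not between 50R and the rest. For the TGF-beta pathway 10 of 12 measured genes were negative (median -0.37), with the secreted factor CTGF (-1.15 ± 0.53, unadjusted p = 0.0414) lower and the activin subunit INHBA (0.38 ± 0.17, unadjusted p = 0.0401) higher. TGFB3 was at -0.72 ± 0.37.

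Epithelial and gland genes mostly had positive differences over the 4 pairs, but not in each pair. Of 11 measured keratinocyte genes 10 had a positive difference (median 0.34). At an unadjusted p under 0.05, where 5.29% of all features were higher, there was 1. The list medians were 1.56 in 49L, 0.98 in 50L, 0.08 in 49R and -1.18 in 50R, and under pressure 9 of the 11 differences were negative (median -0.31). EPCAM, an adhesion protein of epithelial progenitors and glands, stood at -1.75, -2.96, -1.12 and -4.20 in hyper and -3.87, -3.73, -3.47 and -2.69 in hypo scar (0.93 ± 0.35, unadjusted p = 0.0139). The lowest of all 8 values was the hyper biopsy of 50R, and the 2 sham hyper biopsies were nearest to control skin (-0.86 to -0.22). GATA3, a transcription factor of epidermis and hair follicle, stood at 3.60, 2.73, 3.13 and 1.11 against 1.25, 1.50, 1.46 and 2.88 (0.87 ± 0.47). Of 10 measured hair follicle and gland genes 9 were positive (median 0.42). At an unadjusted p under 0.05, against the same 5.29% of all features, there were 2. They were CA6 and the water channel AQP5 (0.54 ± 0.22, with 1 hyper value missing). Under pressure the gland list had 6 positive and 4 negative differences (median 0.02).

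A single mid biopsy had high levels of the gland secretion genes PHEROC and SCGB1D1, while CA6 was highest in another, the hyper biopsy of 50L (1.84). PHEROC, a pheromone-binding protein of apocrine glands, was at 3.01 in the hyper biopsy of 49L and between -2.14 and -1.62 in the other 7 mid biopsies. The secretoglobin SCGB1D1 was at 3.10 there and between -2.27 and -1.27 in the rest. Control skin stood at 5.39 to 6.07 for PHEROC and 4.58 to 5.21 for SCGB1D1. Their fitted differences were 1.27 ± 0.85 and 1.45 ± 0.85. The mean level of the gland list, each gene taken minus its median over 28 arrays, was 1.26 in that biopsy, -0.29 to 0.34 in the other 3 hyper and -0.26 to -0.05 in the hypo biopsies. It was 2.48 to 2.94 in control skin. The part of gland content in the differences was not tested.

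Many but not all skeletal muscle genes were abundant in 1 hyper biopsy. The mean of 25 muscle genes was 3.82 in the hyper biopsy of 49R, -0.63 to 0.70 in the other 3 hyper and -0.58 to 0.85 in the hypo biopsies, against -0.67 to -0.38 in control skin. CKM, the creatine kinase of muscle, stood at 2.20 in that biopsy and at -4.24 to -1.71 in the rest, and MYOZ1, a protein of the muscle Z-disc, at 3.28 against -3.90 to -1.99. In pair 49R 20 of the 25 genes were higher in hyper scar and 5 lower. Among the lower were the muscle genes MYH7, MYL2 and TNNT1, at -4.20, -5.01 and -2.67 in the hyper biopsy. The muscle list had a median difference of 1.14, with 22 of 25 genes positive and 1 at an unadjusted p under 0.05, MYOG. At that threshold 5.29% of all features were higher. The differences of CKM (1.63 ± 1.16) and MYOZ1 (1.86 ± 1.21) did not pass. The same biopsy had the highest adipocyte mean of the hyper group, 1.82 against -0.59 to 0.01. The part of deep tissue in the differences was not tested, and without the pair 49R 1 feature passed the adjusted threshold.

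Immune genes were high in 1 biopsy of each colour. The mean of 9 neutrophil and phagocyte genes was 1.87 in the hyper biopsy of 50R and 2.36 in the hypo biopsy of 49L, and -0.64 to 0.11 in the other 6. The phagocyte oxidase subunit GP91-PHOX stood at 1.80 and 2.58 in these 2 biopsies and at -2.70 to -0.55 in the rest. The complement receptor C5AR1 was at 2.67 and 3.27, against -1.63 to 0.39. Macrophage genes had the same 2 biopsies highest, at 1.29 and 1.34, and the scavenger receptor CD163 reached 0.48 in the hyper biopsy of 50R. GPNMB, a glycoprotein of macrophages and melanocytes, was at 3.05 and 4.12 there and at -0.43 to 1.68 in the other 6. None of the 9 phagocyte and 19 macrophage genes had an unadjusted p under 0.05 over the 4 pairs (medians -0.35 and -0.26), against 9.39% of all features in either direction. Of 12 T and NK cell genes 2 had, the co-receptor CD8A (0.61 ± 0.23) and the granule protease GZMB (0.48 ± 0.22), with a list median of 0.13. At that threshold 5.29% of all features were higher. The part of immune cells in the differences was not tested.

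The list median was 0.30 for 13 adipocyte genes (10 positive), -0.24 for 14 endothelial genes (12 negative), 0.07 for 24 interferon response genes, -0.10 for 25 cytokines and chemokines and -0.25 for 9 cell cycle genes (8 negative). Of these genes 0 had an unadjusted p under 0.05, where 9.39% of all features passed in either direction. Under median centring the interferon median turned to -0.03. Among 11 retinoid and WNT genes (median -0.16) the WNT inhibitors SFRP4 (-1.31 ± 0.61) and DKK3 (-0.92 ± 0.41) were lower in hyper scar at an unadjusted p under 0.05. At that threshold 4.1% of all features were lower. Among 6 genes of myofibroblasts and smooth muscle (median 0.02, and -0.20 under median centring) CNN1, an actin-binding protein of smooth muscle, was higher (1.24 ± 0.41, with the hyper value of 50R missing), and the myosin light chain MYL6 was lower. MYL6 stood at -0.81 to -0.15 in hyper and -0.01 to 0.12 in hypo scar, without overlap (-0.38 ± 0.15, unadjusted p = 0.0184). CD40, a receptor of B cells and antigen-presenting cells, was lower (-0.63 ± 0.23). Schwann cell (4 genes, 0.04), mast cell (3, -0.16), B and plasma cell (3, -0.33) and immediate early and heat shock genes (10 together, 0.10, and -0.07 under median centring) were measured too, and no red blood cell gene was.

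**Figure D3:**
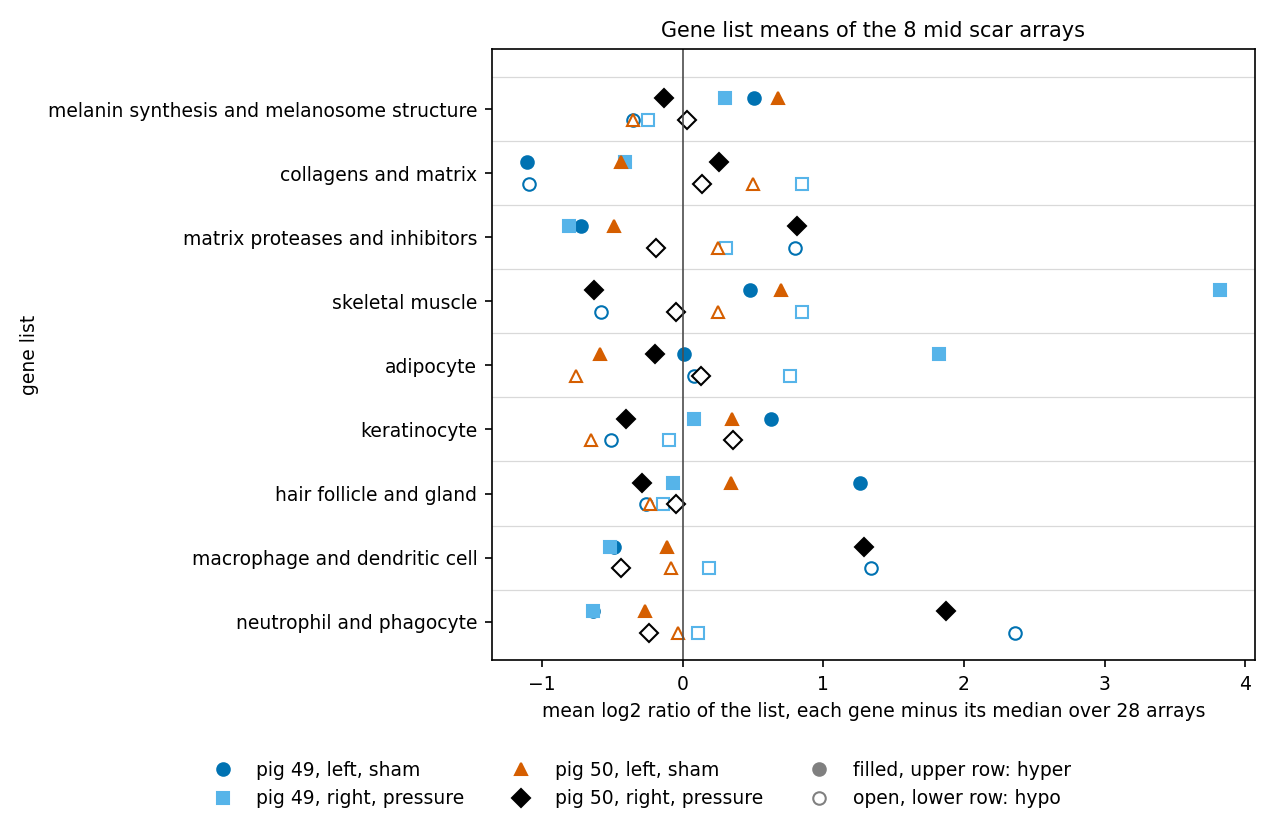
Mean log2 ratio of 9 gene lists, each gene taken minus its median over 28 arrays (x axis), in the 4 hyper (filled, upper row) and 4 hypo (open, lower row) mid scar biopsies. The hyper biopsy of 49R stands alone for skeletal muscle at 3.82, and the hyper biopsy of 50R and the hypo biopsy of 49L stand together for phagocyte genes at 1.87 and 2.36.

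The hyper and hypo biopsies were also compared within each treatment, and the treatments with each other. In sham scar, with 2 biopsies of each colour, 1011 features (5.39%) passed in limma, 879 higher in hyper (4.68%) and 132 lower (0.703%). In pressure-treated scar 0 features (0%) passed, with 599 (3.19%) at an unadjusted p under 0.05. The difference between the treatments was tested itself and passed in 215 features (1.15%). Hyper minus hypo was higher under pressure in 12 of them (0.0639%) and lower in 203 (1.08%). These counts rest on few biopsies. Without the hyper biopsy of 50R 0 features passed the test between treatments, and without that of 49R 1825 did. Without the hyper biopsies of 49L or 50L it gave 9 or 4, and without the hypo biopsies of 49L, 49R, 50L or 50R it gave 0, 75, 7 or 2. The sham count was 12, 11, 45 and 90 without each of its own biopsies (hyper 49L, hyper 50L, hypo 49L and hypo 50L), and 0 with median centring.

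In sham scar AB280952 rose in hyper against hypo (2.60 ± 0.58, adjusted p = 0.0206), as did DCT (1.24 ± 0.35, adjusted p = 0.0457) and CITED1 (0.97 ± 0.25, adjusted p = 0.0279). TYR (0.85 ± 0.33, adjusted p = 0.134) and TYRP1 (1.46 ± 0.45, adjusted p = 0.060) did not pass. Under pressure the differences were 0.41 for TYR, 0.45 for TYRP1, 1.64 for AB280952 and -0.29 for DCT. The test between the treatments did not pass for TYR (-0.45 ± 0.47, adjusted p = 0.641), TYRP1 (-1.01 ± 0.64, adjusted p = 0.400), AB280952 (-0.96 ± 0.82, adjusted p = 0.551) or DCT (-1.53 ± 0.50, adjusted p = 0.105).

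Some epithelial and gland genes rose in sham hyper scar as well. EPCAM was 2.23 ± 0.49 higher (adjusted p = 0.0190), the cell adhesion protein CDH1 1.94 ± 0.53 (adjusted p = 0.0379) and CA6 1.34 ± 0.35 (adjusted p = 0.0332). AQP5 passed with a single sham hyper value, that of 49L (1.28 ± 0.34, adjusted p = 0.0353), which rests on the spread of the other groups. Of the measured keratinocyte genes 2 of 11 passed (median 1.03) and of the gland genes 2 of 10, AQP5 included (median 1.17), against 4.68% of all features higher and a median of 0.07. MYOG, a transcription factor of muscle cells (1.18 ± 0.23, adjusted p = 0.0162), and GZMB (1.29 ± 0.31, adjusted p = 0.0226) rose too. The matrix genes CTSK (-2.74 ± 0.71, adjusted p = 0.0301) and TIMP1 (-1.79 ± 0.47, adjusted p = 0.0327) fell, 2 of the 12 proteases and inhibitors (median -1.22), against 0.703% of all features lower. EPCAM, like MYOG, passed in 4 of the 8 fits that each left out 1 mid biopsy.

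The 4 genes with a symbol of lowest p in the test between treatments were all higher in sham hyper scar, and each had the opposite sign under pressure. PHGDH, the first enzyme of serine synthesis, was at 0.48 and 0.37 in the sham hyper biopsies of 49L and 50L and at -1.60 in the sham hypo biopsy of 49L, with the value of 50L missing. In pressure-treated scar it stood at -0.74 and -0.52 in hyper and 0.22 and -0.11 in hypo biopsies. The treatment difference was -2.73 ± 0.44 (adjusted p = 0.0301), from 2.05 in sham to -0.69 under pressure, with a single sham hypo value in the fit, assumed to vary like the other groups, and 1 of its 2 probes had the other sign over the 4 pairs. The antimicrobial peptide DEFB1 went from 1.29 to -0.62 (-1.90 ± 0.33, adjusted p = 0.0390), also with 1 of 2 probes opposed. MUT, methylmalonyl-CoA mutase of mitochondria, went from 1.73 to -0.67 (-2.40 ± 0.47, adjusted p = 0.0392), and the membrane protein MALL from 1.26 to -0.72 (-1.98 ± 0.41, adjusted p = 0.0392). The fucosyltransferase FUT1 (-1.15 ± 0.28, adjusted p = 0.0465) passed as well. In the other direction were GFPT1, the entry enzyme of the hexosamine pathway (1.07 ± 0.25, adjusted p = 0.0431), and ARL6IP5 (1.80 ± 0.38, adjusted p = 0.0392), both lower in sham hyper scar. GFPT1 was well above background on 1 of 4 hyper and 4 of 4 hypo arrays.

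For MUT, the sham hyper biopsies stood at -0.64 and 0.15, and the 2 pressure hyper biopsies at -1.91 and -2.31, next to the hypo biopsies of 49L, 49R and 50L at -1.99 to -1.87. The hypo biopsy of 50R was the exception at -1.01. DEFB1 had the same order, with -1.66 and -1.52 in sham hyper, -3.12 and -3.17 in pressure hyper and -3.11 to -2.47 in hypo scar. The sham hyper biopsies thus stood above every other mid biopsy for both genes, as they did for MALL, at 2.13 and 2.25 against 0.55 to 1.71. Of these, MUT, DEFB1 and MALL passed in 2, 3 and 1 of the 8 fits that each left out 1 mid biopsy, and PHGDH in 3 of 7.

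**Figure D4:**
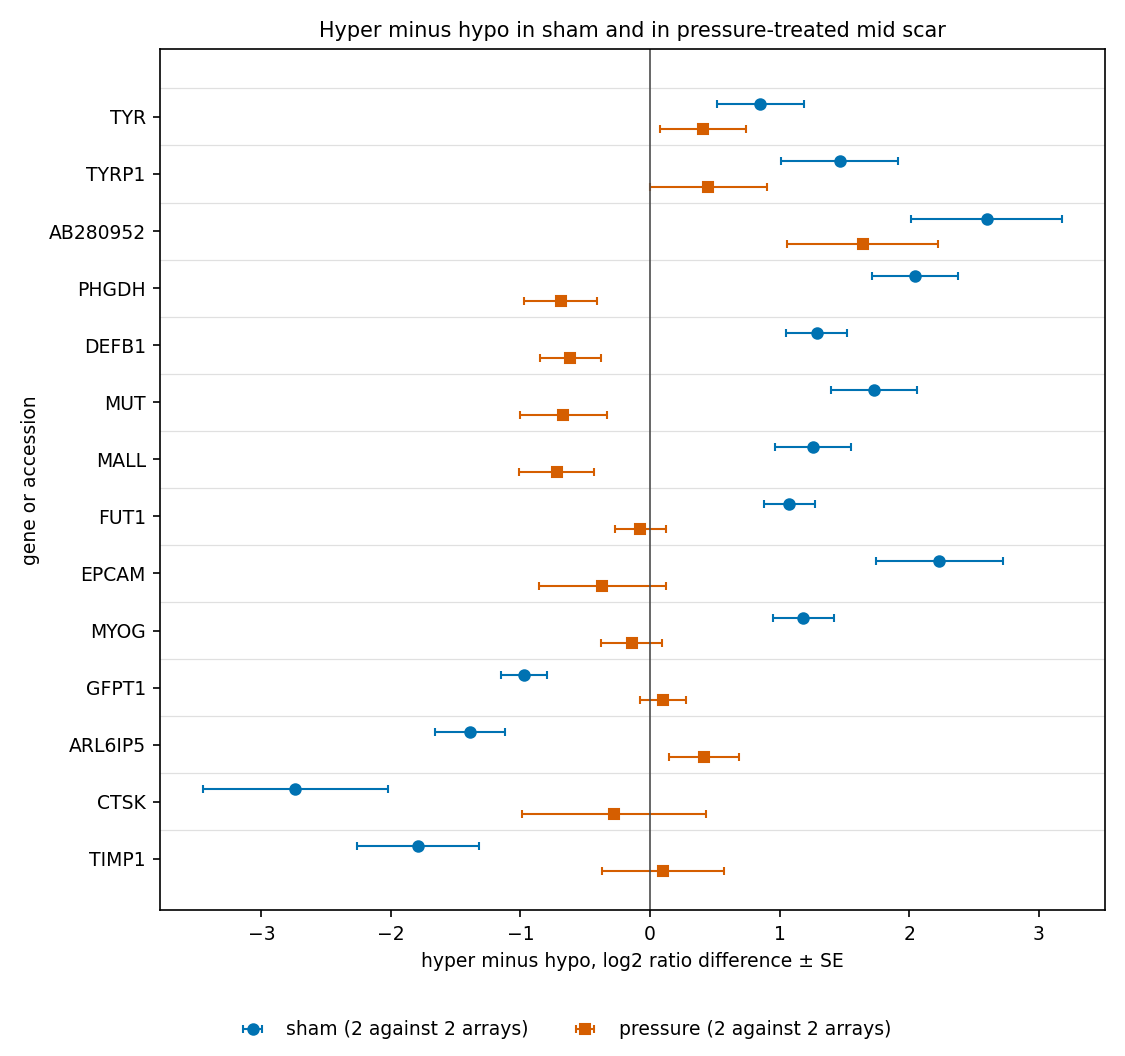
Hyper minus hypo difference of the log2 ratio ± SE (x axis) in sham (circles, 2 against 2 arrays) and pressure-treated mid scar (squares, 2 against 2 arrays) for 14 features, with 1 sham hypo value missing for PHGDH. TYR, TYRP1 and AB280952 lie above 0 under both treatments, while PHGDH, DEFB1, MUT and MALL lie above 0 in sham and below it under pressure.

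The mid difference was then set against early and late scar, where the same colours were compared with 4 arrays each. Between mid and early scar 0 of 18768 features (0%) passed in limma, with 362 (1.93%) at an unadjusted p under 0.05 and a median of -0.01. Leaving out the hyper biopsy of 49L gave 7 features, and leaving out that of 49R or 50L gave 1. The genes of lowest p were the cell cycle regulator CDC20 (-0.61 ± 0.17), the sterol carrier STARD4 (-0.90 ± 0.23), GFPT1 (-0.66 ± 0.18) and RSC1A1 (-1.01 ± 0.29), each with an adjusted p of 1.0. Only 1 of 4 probes of RSC1A1 had its direction over the 4 mid pairs.

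Between mid and late scar 1470 features (7.83%) passed, and the median of all features was 0.07. Hyper minus hypo was higher in mid than in late scar in 1195 of them (6.37%) and lower in 275 (1.47%). The split depended on the scaling: 62 were higher and 1386 lower with median centring, and 863 and 598 with the processed signals. Without the pair 49R 0 features passed, and without 50R 3149 did. Leaving out single mid biopsies gave 483 (hyper 49R), 506 (hypo 49R), 942 (hyper 49L), 949 (hyper 50L), 971 (hypo 50L) and 2883 (hyper 50R). With the background limit removed 187 passed, and with array weights 700. The share of probes well above background was 40.0 to 47.1% on late hyper arrays. On late hypo arrays it was 31.4 to 41.2%, with the lowest values of the series among them. The part of this in the counts was not tested, and no fit left out a late biopsy.

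TYR, TYRP1 and AB280952 had a positive difference at each phase. TYR differed by 0.91 ± 0.24 in early, 0.63 ± 0.24 in mid and 0.96 ± 0.24 in late scar, where hyper minus hypo passed (adjusted p = 0.0232). TYRP1 differed by 1.27 ± 0.32, 0.96 ± 0.32 and 0.66 ± 0.32. AB280952 differed by 2.32 ± 0.41, 2.12 ± 0.41 and 1.62 ± 0.41, and its late difference passed (adjusted p = 0.0271). The change between mid and late did not pass for TYR (-0.34 ± 0.33, adjusted p = 0.577), TYRP1 (0.29 ± 0.45, adjusted p = 0.737) or AB280952 (0.50 ± 0.58, adjusted p = 0.640), and between mid and early the adjusted p was 1.0 for each. Nor did it pass for DCT, which was at 0.50 ± 0.25 in early, 0.47 ± 0.25 in mid and -0.46 ± 0.25 in late scar (0.93 ± 0.35 between mid and late, adjusted p = 0.109).

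The difference of some matrix genes changed between mid and late scar. FBN1 was 0.86 ± 0.29 lower in hyper than in hypo scar at the mid phase and 1.08 ± 0.29 higher at the late phase (adjusted p = 0.0346). Mid minus late was -1.94 ± 0.41 (adjusted p = 0.0088). CTSK changed by -3.08 ± 0.71 (adjusted p = 0.0129), from 1.58 in late to -1.51 in mid scar. TIMP2 (-1.69 ± 0.42, adjusted p = 0.0191), TIMP1 (-1.54 ± 0.47, adjusted p = 0.0497) and THY1 (-1.29 ± 0.27, adjusted p = 0.0076) had the same sign. The call was made for 3 of 12 proteases and inhibitors (median -1.15) and for 1 of 14 collagens and matrix genes (median -1.17). Of all features, 1.47% passed with a lower difference in mid scar.

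In the other direction were the 4 genes with a symbol of lowest p in this comparison. MYOG went from -0.73 in late to 0.52 in mid scar (1.25 ± 0.23, adjusted p = 0.0064), MUT from -1.29 to 0.53 (1.82 ± 0.33, adjusted p = 0.0064), FUT1 from -0.58 to 0.50 (1.08 ± 0.19, adjusted p = 0.0064) and the interferon receptor chain IFNAR2 from -1.19 to 0.46 (1.65 ± 0.32, adjusted p = 0.0065). Each of these 4 passed in all 8 fits that left out 1 mid biopsy. None passed without the background limit, with median centring (differences of 0.06 to 0.30) or without the pair 49R (adjusted p = 0.0713 for each). GATA3 (2.30 ± 0.66, adjusted p = 0.0386) and GZMB (1.34 ± 0.31, adjusted p = 0.0128) passed as well. Of the keratinocyte genes 1 of 11 passed, with a list median of 1.32. Of all features, 6.37% passed with a higher difference in mid scar.

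**Figure D5:**
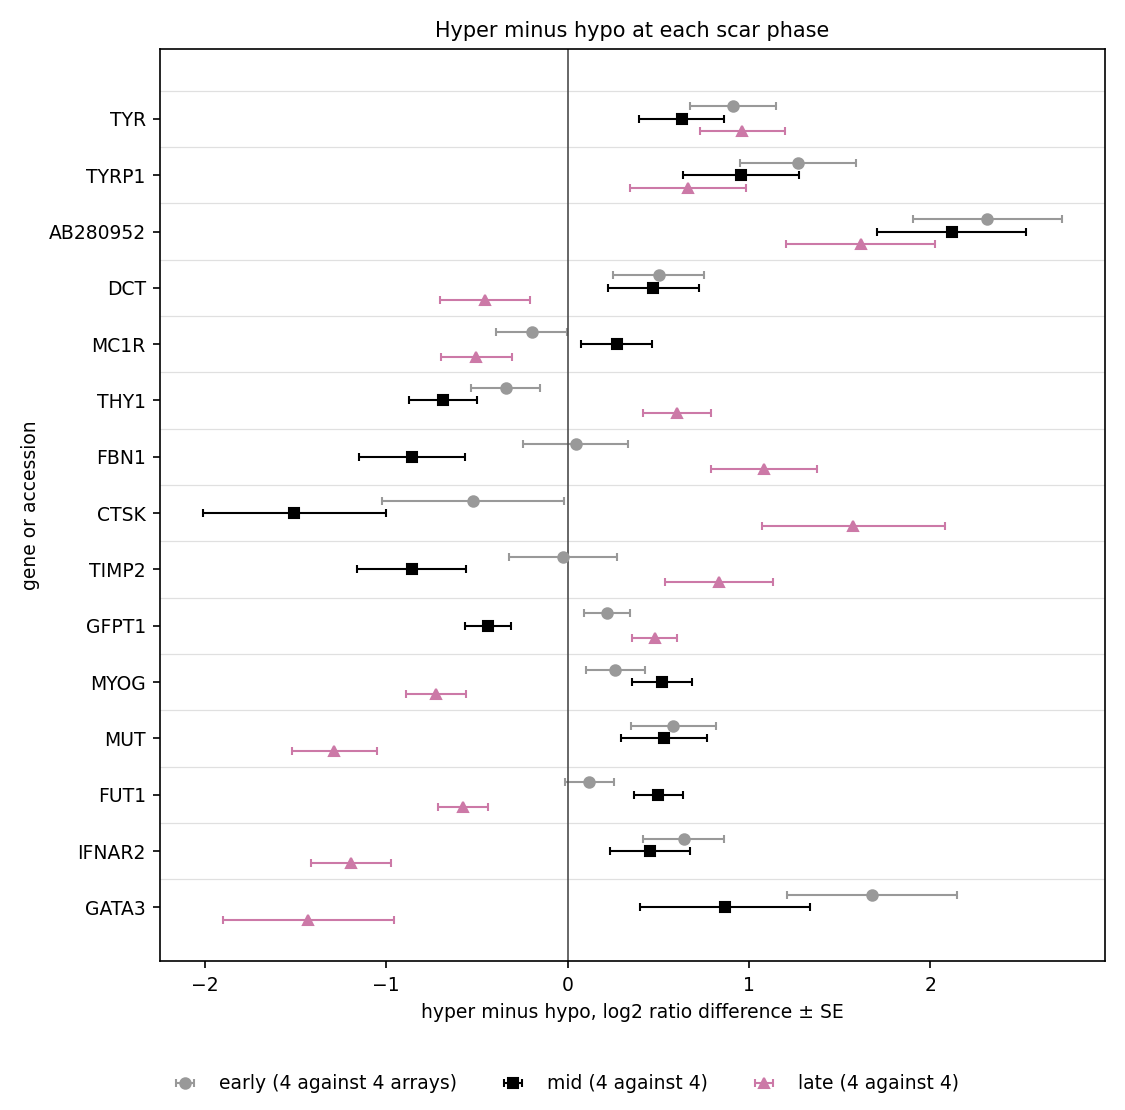
Hyper minus hypo difference of the log2 ratio ± SE (x axis) in early, mid and late scar, 4 against 4 arrays each, for 15 features. TYR, TYRP1 and AB280952 lie above 0 at each phase, and FBN1, CTSK and TIMP2 lie below 0 in mid and above 0 in late scar.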

How the data were processed

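RNA of 28 biopsies was measured, 1 biopsy per Agilent array, on 7 slides of 4 arrays. Agilent Feature Extraction 10.7.1.1 read the scans, per the file headers, and gave each spot's median signal and local background as intensity. The deposited scanner files also hold a log10 ratio of the program's processed signals. The authors' deposited value table is in log2 units and equals the log2 ratio of those signals within 0.001 for 99.97 to 99.99% of probes per array. Its column medians ran from 0.0125 to 0.260, and further steps are not given in the sources used here.

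Median signals were corrected with normexp (offset 50) in limma 3.58.1 (R 4.3.3), with local backgrounds limited to the 99th percentile within each array and channel, and normalised by loess within arrays. Outlier spots were treated as missing, 0.53% of feature values. Probes well above background on at least 4 arrays were kept (24513 of 43603). The brightest probe stood for a gene or accession, and 5 features with a group all missing were left out. One model with 11 group means and the animal was fitted to all 28 arrays, with a threshold of 0.05 after Benjamini-Hochberg adjustment. The scripts were tested on simulated data. Symbols came from RefSeq accessions, for 6924 probes of 3216 genes.

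The arrays, the 25 gene lists and the named genes (up to 8 of lowest p in each direction with 1 sign in all pairs, up to 4 of each list or contrast) were chosen with earlier results of these data known, and some genes that the rule names are left out of the text. The contrasts within sham and within pressure, the fits without a pair, and the background cap were added after the data were seen. Same-numbered hyper and hypo biopsies did not deviate together (correlation 0.06 in sham and -0.19 in pressure). The number of arrays limits the precision. One gene that the rule names is not reported here. No genome sequence was used here.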

Additional observations from a re-analysis of the deposited data

Results flagged for a closer look

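Within groups of 4 mid biopsies, the highest or the lowest biopsy stood far from the other 3 in 14 of 199 groups looked at (7.04%), where chance gives about 1 in 20. In the hyper group the biopsy of 50R stood apart for TGFB1 (0.44), GP91-PHOX (1.80), CD8A (0.36), RSC1A1 (1.02), the phagocyte list (mean 1.87) and the cytokine list (mean 0.15). The hyper biopsy of 50L stood apart for CA6 (1.84) and that of 49L for PHEROC (3.01). In the hypo group the biopsy of 50R stood apart for GATA3 (2.88), MUT (-1.01) and SCGB1D1 (-1.58), and that of 49L for the phagocyte list (mean 2.36). The biopsies of 49R stood apart for MYL6, at -0.81 in the hyper and 0.12 in the hypo group. The part of these biopsies in the differences was not tested beyond the fits that leave them out.

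The difference between hyper and hypo scar differed between pressure (right side) and sham (left side) in 215 features, by limma's test of pressure minus sham, and in 0 features without the hyper biopsy of 50R or with median centring. Of the features described they include PHGDH (-2.73), MUT (-2.40), MALL (-1.98), DEFB1 (-1.90) and FUT1 (-1.15), with a lower difference under pressure, and ARL6IP5 (1.80) and GFPT1 (1.07), with a higher one.

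It also differed between mid and late scar in 1470 features, by limma's test of mid minus late, and in 0 features without the pair 49R. Of the 77 features described, 27 were among the 1470, which are 7.83% of all features. Many of the 77 were named for a low p in these contrasts, so this count was shaped by the choice. The values that follow compare the hyper minus hypo difference between the phases, not the level. The difference was higher in mid scar for GATA3 (2.30), MUT (1.82), IFNAR2 (1.65), GZMB (1.34), MYOG (1.25), AY214329 (1.24), DEFB1 (1.16), PHGDH (1.09), FUT1 (1.08), MALL (1.02), TC566497 (1.02), ENSSSCT00000014563 (1.0) and JADE1 (0.78). It was lower for ENSSSCT00000006679 (-3.12), CTSK (-3.08), FBN1 (-1.94), TC595575 (-1.88), TIMP2 (-1.69), TIMP1 (-1.54), ARL6IP5 (-1.37), RSC1A1 (-1.31), THY1 (-1.29), AK237962 (-1.21), TMX4 (-1.09), GFPT1 (-0.92), TC591169 (-0.80) and ANKRD17 (-0.71).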

How the results depend on the processing

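Counts of features past the adjusted threshold moved with several choices, and the cause was not tested. Hyper minus hypo over the 4 pairs gave 0, and 1 with processed signals, 36 with the slide as a fixed block, 476 without the pair 50R, 1 without the pair 49R and 0 to 101 without single biopsies. Pressure minus sham gave 215. It gave 0 without the background cap, with processed signals, with median centring and with array weights, and 32 without the filter on dim probes. It gave 355 with the filter on the mid arrays, 1200 and 463 with the slide as a fixed or random block, 2 without the pair 50R, 1538 without 49R and 0 to 1825 without single biopsies. Mid minus early gave 0, and 1 without the pair 49R and 0 to 7 without single biopsies. Mid minus late gave 1470, and 187 without the cap, 700 with array weights, 3149 without the pair 50R, 0 without 49R and 483 to 2883 without single biopsies. The sham contrast gave 1011, and 11 without the cap, 572 with processed signals, 0 with median centring, 2021 with the slide as a fixed block and 11 to 1403 without single biopsies. The pressure contrast gave 0, and 5 without the pair 50R, 1 without 49R and 0 to 6 without single biopsies.

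With the pairs as a replicate block, pressure minus sham gave 0, mid minus late 821, and hyper minus hypo 0 over 24 scar arrays and 0 over the 8 mid arrays (1504 and 223 at an unadjusted p under 0.05). The pairs share only a number, and the labels do not say that it marks 1 scar. Over the fits without 1 biopsy the mean pair difference was 0.48 to 0.71 for TYR and 0.78 to 1.23 for TYRP1. Median centring moved the median of all features from -0.13 to 0.16 in pressure minus sham and from 0.07 to -0.14 in mid minus late. Without the cap DCT turned to -0.21 in mid scar and STARD4 to 0.019 in mid minus early. Of the values of single features, 991 kept direction and side of the threshold, 156 lost it, 23 gained it and 2 reversed. The faint signals of TYR and TYRP1 limit the size of their differences.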
